A study of Homo sapiens with 12 samples.

Results

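A set of 10 genes of the NF-kappaB pathway was followed across an RNA sequencing experiment in Ovcar8 ovarian cancer cells. The set held the chemokines CXCL1, CXCL2, CXCL8 and CCL2, the cytokine IL6, the adhesion molecule ICAM1, the inhibitors NFKBIA and TNFAIP3, and the subunits RELB and NFKB2. The 10 genes were taken by symbol from the 58735 genes of the deposited count table, and each symbol matched 1 row. Of the 10, 9 had enough counts to be tested among 15378 tested genes, and CCL2 did not.

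Ovcar8 is a human cell line from high-grade serous ovarian carcinoma, grown here in RPMI-1640 with 5% FBS. All cells had received lentivirus and puromycin at 3 ug/ml. The 4 groups of 3 libraries were control cells, cells with CCNE1 overexpression, and cells with CCNE1 overexpression plus either of 2 short hairpin RNAs against TMLHE, labelled shTMLHE #1 and shTMLHE #2. CCNE1 encodes cyclin E1, a partner of CDK2 at the start of S phase, and TMLHE encodes the enzyme that opens carnitine synthesis. The labels describe no hairpin group without CCNE1 and no group with a hairpin of another target, so an effect of TMLHE loss cannot be told apart from an effect of carrying a hairpin. They name 1 line and give no separate culture for each replicate, so p-values measure the spread between these libraries, which may be technical. The design text sets CCNE1 against control and shTMLHE against CCNE1. Both hairpin comparisons, and the comparison with control, use the same 3 CCNE1 libraries.

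NF-kappaB transcription factors are pairs of the subunits RELA, RELB, REL, NFKB1 and NFKB2, held in the cytoplasm by inhibitor proteins such as IkappaB-alpha, the product of NFKBIA. In the canonical route, signals from receptors such as those for TNF and IL-1 lead to destruction of the inhibitor, and in the alternative route NFKB2 is cut to a shorter form that pairs with RELB. Active dimers bind kappaB sites near chemokine, cytokine and adhesion genes, and also near NFKBIA, TNFAIP3, RELB and NFKB2 themselves, which gives the pathway feedback. In ovarian cancer cells the chemokines and IL6 are known as secreted signals to neutrophils, monocytes and the tumour cells.

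The promoters of 8 of the 10 genes were matched in the RefSeq promoter table of GRCh38.p14, which spans 250 bases before to 50 after each start. Sequences of the chemokine trio, of both inhibitors and of NFKB2 are shown because these genes behaved differently in the libraries described next. Each line gives the 200 bases before the start, 5′ to 3′, with matches to the kappaB 9-mer GGNNNTTCC on either strand in capitals.
CXCL1 (chr4:73869193-73869392, plus strand): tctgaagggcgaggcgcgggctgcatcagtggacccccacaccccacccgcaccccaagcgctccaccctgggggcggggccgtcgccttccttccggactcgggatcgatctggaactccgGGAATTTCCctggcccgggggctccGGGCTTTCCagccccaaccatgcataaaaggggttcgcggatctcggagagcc
CXCL2 (chr4:74099196-74099395, minus strand): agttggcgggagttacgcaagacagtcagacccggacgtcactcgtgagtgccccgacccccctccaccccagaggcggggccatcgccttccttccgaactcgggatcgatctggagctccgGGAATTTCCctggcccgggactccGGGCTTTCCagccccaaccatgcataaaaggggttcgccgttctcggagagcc
CXCL8 (chr4:73740369-73740568, plus strand): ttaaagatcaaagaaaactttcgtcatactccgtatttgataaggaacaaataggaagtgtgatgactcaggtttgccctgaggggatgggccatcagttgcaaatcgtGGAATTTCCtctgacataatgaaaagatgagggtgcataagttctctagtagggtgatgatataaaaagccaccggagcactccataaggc
TNFAIP3 (chr6:137867059-137867258, plus strand): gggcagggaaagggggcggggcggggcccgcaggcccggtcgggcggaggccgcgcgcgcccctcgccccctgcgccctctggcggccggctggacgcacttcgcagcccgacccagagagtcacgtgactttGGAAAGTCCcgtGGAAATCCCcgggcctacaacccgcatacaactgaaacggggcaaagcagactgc
NFKBIA (chr14:35404750-35404949, minus strand): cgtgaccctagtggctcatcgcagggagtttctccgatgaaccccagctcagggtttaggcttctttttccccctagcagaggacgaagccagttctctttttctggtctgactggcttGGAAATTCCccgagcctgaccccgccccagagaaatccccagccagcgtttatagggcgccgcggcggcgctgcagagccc
NFKB2 (chr10:102394378-102394577, plus strand): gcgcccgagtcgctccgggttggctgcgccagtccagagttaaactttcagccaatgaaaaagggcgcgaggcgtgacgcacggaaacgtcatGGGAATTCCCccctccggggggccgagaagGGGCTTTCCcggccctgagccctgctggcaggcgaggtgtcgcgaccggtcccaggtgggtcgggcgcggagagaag

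A match to GGNNNTTCC lay in at least 1 window of each of the 8 genes, against 20.1% of 35116 promoter windows of 300 bases. The genes had been listed as NF-kappaB targets, so this share describes the list. CXCL1 and CXCL2, neighbours on chromosome 4 from gene duplication, carried a pair of matches at nearly the same places, at -78 and -53 in CXCL1 and at -77 and -53 in CXCL2, counted from the start to the first base of the match. Their 250 upstream bases were 69% identical in alignment, against 42.6% between CXCL1 and CXCL8. CXCL8 had a single match at -91, with the AP-1 motif TGANTCA at -137 and TATAAA at -31. TNFAIP3 held matches at -67 and -55, and NFKBIA at -81 and, outside the bases shown, at -242. IL6 had a match at -72 and ICAM1 at -186. NFKB2 has 3 starts in the table, numbered as listed, and start 1 had no match. Start 2, shown above, had 2 overlapping matches on opposite strands at -107 and -106 and another at -77, and start 3 had matches at -176 and -20. The AP-1 motif occurred in 7.71% of all windows, the C/EBP motif TTNNGCAA in 10.5% and TATAAA in 11.5%, each searched on both strands. In the map of motif matches, C/EBP matches lay at -188 in CXCL2 and, on the strand opposite to the gene, at -155 in IL6. TATAAA also lay at -30 in ICAM1 and, on the opposite strand, at -33 in NFKBIA. A match to these letters is not a measured binding site.

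**Figure D1:**
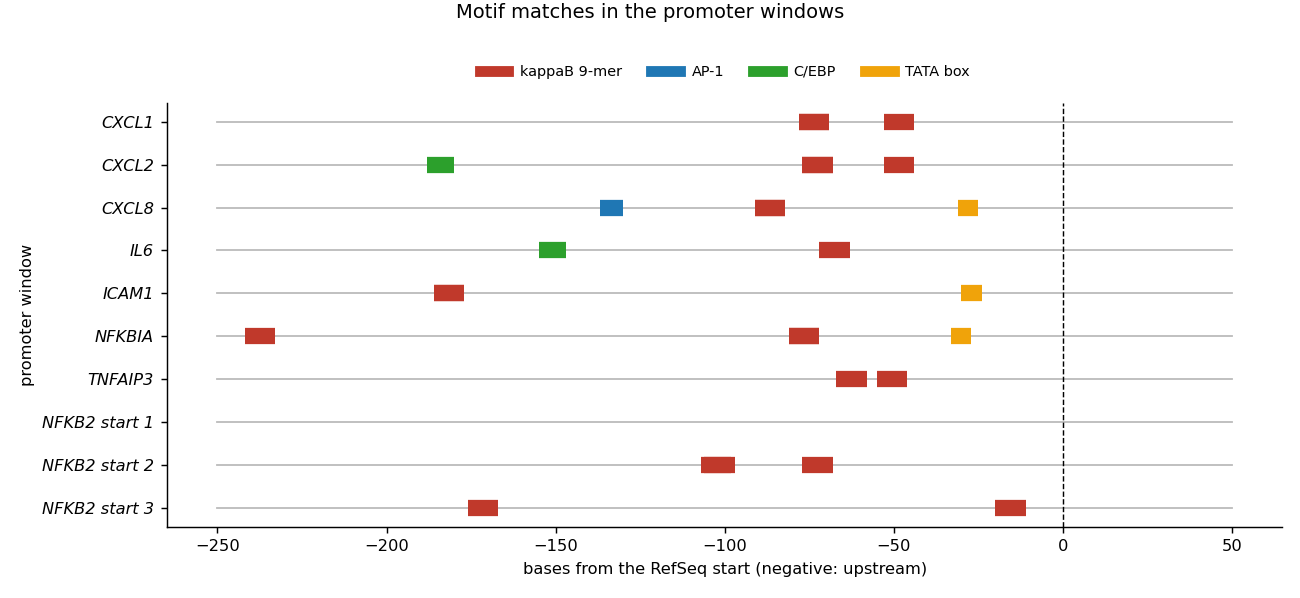
Motif matches in the promoter windows of 8 genes, drawn by distance in bases from the RefSeq start (negative is upstream). Rows are windows, with 3 starts for NFKB2, and coloured blocks are matches on either strand. A kappaB 9-mer lies within 91 bases upstream of the start in every gene except ICAM1, where it lies at -186.

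Library totals were 14054101 to 21457503 counts over all groups. Levels are given in CPM, the read count relative to a library size scaled by TMM, a method that sets the bulk of genes equal between libraries. TMM factors were 0.847 to 0.864 in control and CCNE1 libraries and 1.11 to 1.23 in hairpin libraries, so levels relative to the plain total differ between these 2 pairs of groups. CCNE1 stood at a mean of 33.1 CPM in control, 1002 in the CCNE1 group, 1269 with shTMLHE #1 and 847.1 with shTMLHE #2. TMLHE stood at 16.5 CPM in control, 15.7 with CCNE1, 0.956 with shTMLHE #1 and 0.482 with shTMLHE #2. Hairpin libraries lay apart from the others on the first principal component, with 63% of the variance. Of 10 markers of serous ovarian epithelium, KRT7, KRT8, KRT18, PAX8 and MSLN were high and MUC16 was at 0 in all 12 libraries. EPCAM was low, at group means of 2.51 to 3.27 CPM, and KRT19, WT1 and SOX17 were under 0.45 CPM in each group mean. The 9 leukocyte markers summed to 1.37 to 3.97 CPM per library, with the defining gene PTPRC at 0 in 10 of 12 libraries. The 5 endothelial markers summed to 0.911 to 3.86 CPM. The 6 fibroblast markers summed to 591 to 1591 CPM, nearly all from COL1A1, and DCN was at 0 in every library. In bulk RNA, fewer cells that express a gene and less RNA per cell cannot be told apart.

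Per kilobase of exon, NFKB2 was the most abundant of the 10 genes, ICAM1 and NFKBIA came next and RELB after them, and TNFAIP3, the chemokines and IL6 were far lower. NFKBIA, at 9.39 CPM per kb, lay above ICAM1, at 9.14, in the CCNE1 group and below it in the other groups. Mean levels in control were 29.2 CPM per kb for NFKB2, 17.8 for ICAM1, 12.3 for NFKBIA and 4.64 for RELB. TNFAIP3 stood at 0.354 CPM per kb in control, IL6 at 0.418, CXCL1 at 0.420, CXCL2 at 0.394 and CXCL8 at 0.147. A floor of 3 counts equals 0.123 to 0.248 CPM in these libraries, so several chemokine values lie at or under it. The 4 chemokines and IL6 had 0 to 66 counts per library.

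**Figure D2:**
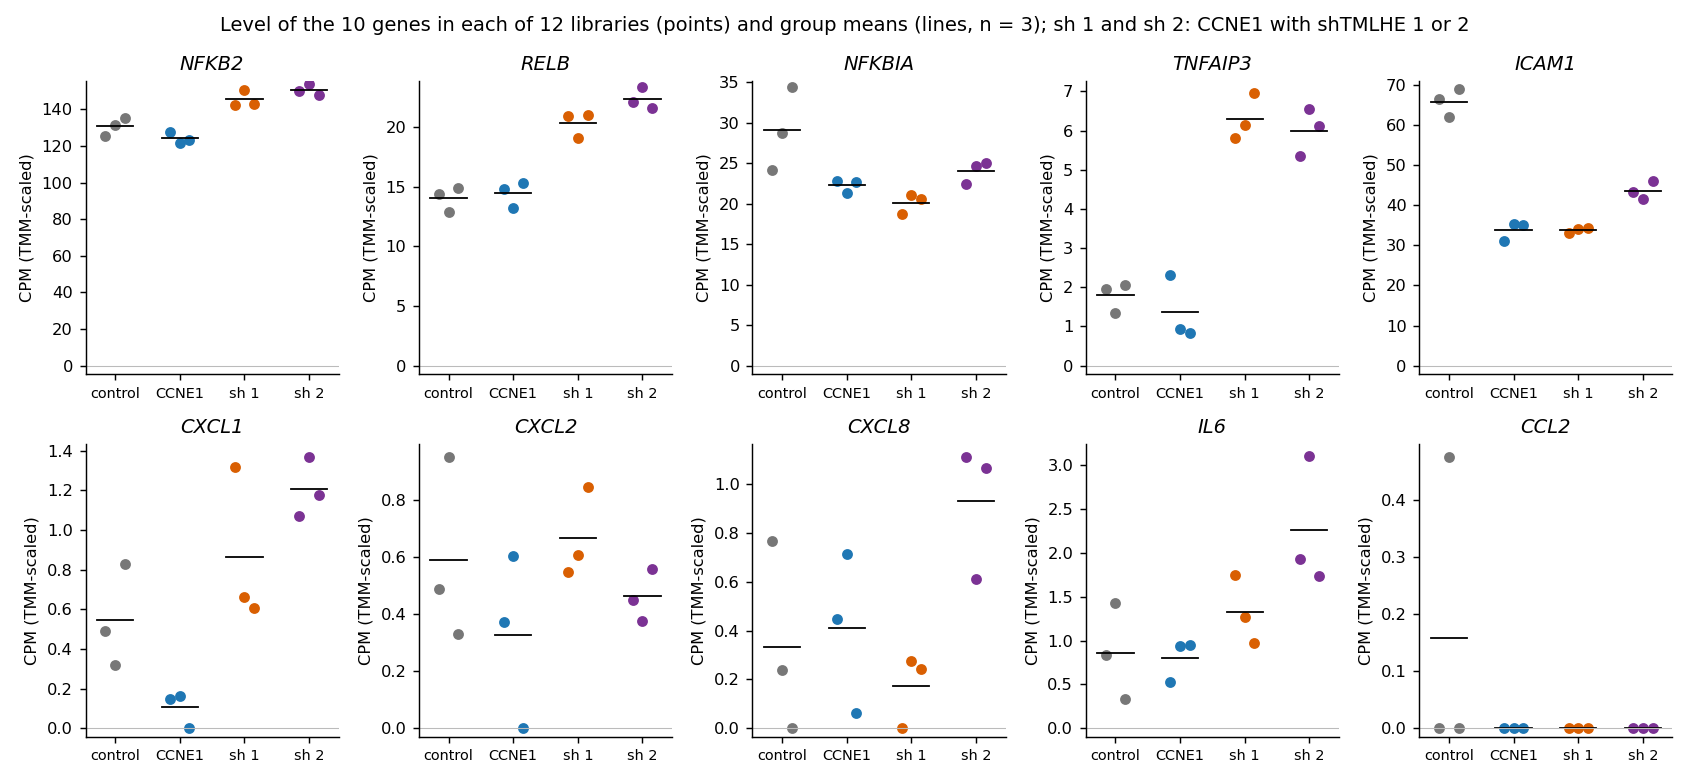
Level of each gene in CPM on linear axes that include 0, 1 point per library, with the mean of 3 libraries as a line. TNFAIP3 and RELB are higher in all hairpin libraries than in all others, ICAM1 is highest in control, and the chemokines lie between 0 and 1.37 CPM.

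Between CCNE1 and control cells, no gene of the 9 tested was higher and 3 were lower with CCNE1: ICAM1, NFKBIA and CXCL1. Over all tested genes 25.1% were higher and 19.1% lower by the same rule, an adjusted p under 0.05 from edgeR's quasi-likelihood test with Benjamini-Hochberg adjustment over 15378 genes, so 44.2% were called in either direction. The median log2 fold change was -0.38 over the 9 genes and 0.05 over all tested genes. The count of 3 of 9 was no larger a share than the background. The same 3 genes were free of overlap between libraries of the 2 groups, as had 47.2% of all tested genes, and CXCL1 alone changed at least 2-fold, as did 6.12%.

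In the hairpin groups, CXCL1, TNFAIP3, RELB and NFKB2 were higher than in CCNE1 cells with both hairpins. With shTMLHE #1 these 4 of 9 were higher and none was lower, against 60.7% of all tested genes called, 30.4% higher and 30.3% lower. With shTMLHE #2, IL6 and ICAM1 were also higher, which made 6 of 9 higher and none lower, against 73% called, 36.8% higher and 36.2% lower. Neither count was a larger share than the calls of either direction over all genes. Higher with both hairpins were 4 of 9 genes and 23.2% of all tested genes. Of these 4, CXCL1 had enough counts to be tested only because of its level in the hairpin groups. Median log2 fold changes of the 9 genes were 0.50 and 0.63, and those of all tested genes 0.03 in both comparisons. CXCL2, CXCL8 and NFKBIA passed with neither hairpin. Free of such overlap were 6 of the 9 genes with shTMLHE #1, among them NFKBIA, which was lower, against 63.9% of all tested genes, and 6 with shTMLHE #2 against 75.6%. At least 2-fold changes were made by CXCL1 and TNFAIP3 with shTMLHE #1, where 19.3% of all tested genes passed that rule, and by CXCL1, TNFAIP3 and IL6 with shTMLHE #2, where 38.1% did.

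**Figure D3:**
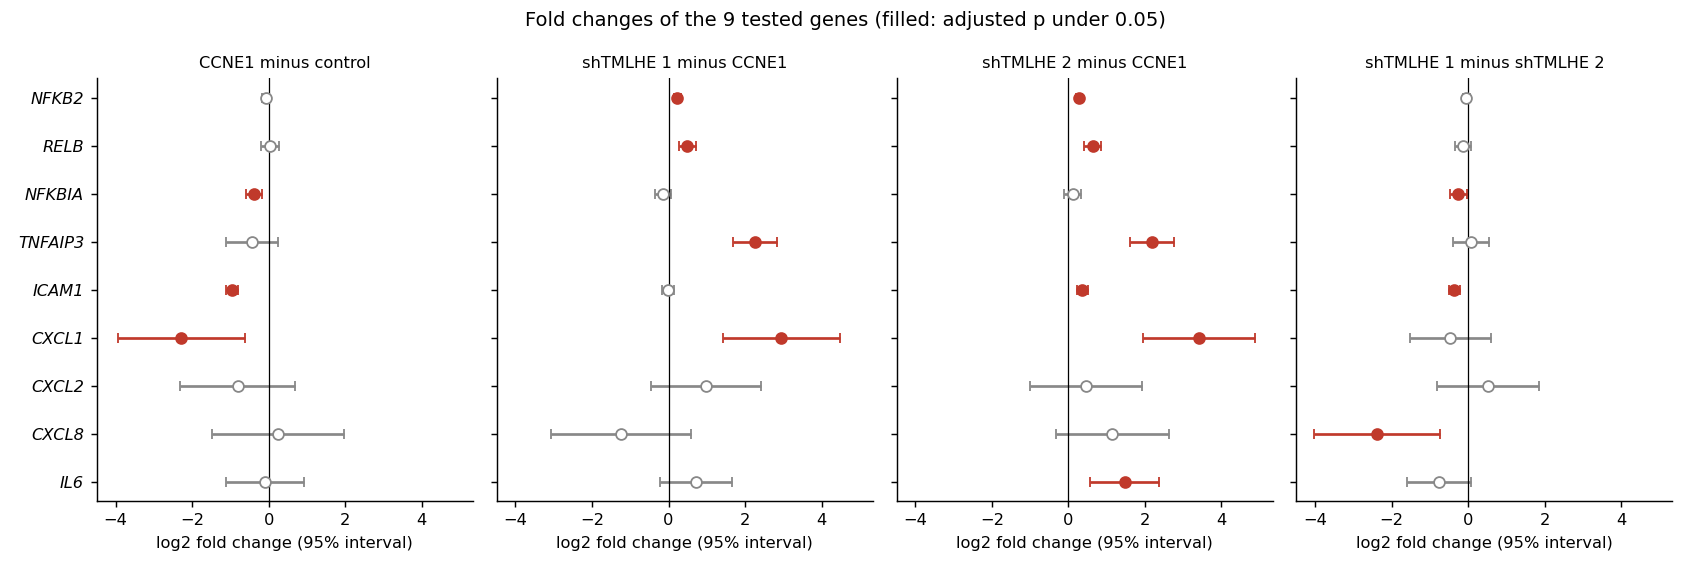
Log2 fold changes of the 9 tested genes in 4 comparisons, with bars for the 95% interval and filled red points for an adjusted p under 0.05. CXCL1 and TNFAIP3 lie farthest above 0 with both hairpins, and the intervals of CXCL2 and CXCL8 span several units on the log2 scale.

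NFKB2 (ENSG00000077150, chromosome 10, 102394110 to 102402529 on the plus strand, GRCh38) encodes p100, the precursor of the p52 subunit of the alternative route. It stood at 125.5, 131.7 and 135.1 CPM in control, 127.9, 121.9 and 123.3 with CCNE1, 142.6, 150.6 and 143.1 with shTMLHE #1, and 150.3, 153.9 and 147.9 with shTMLHE #2. Every hairpin library was above every other library, by a small margin, while control and CCNE1 overlapped. The log2 fold change against CCNE1 was 0.23 ± 0.04 with shTMLHE #1 (SE, edgeR adjusted p = 3.26e-05) and 0.28 ± 0.04 with shTMLHE #2 (adjusted p = 6.17e-07). CCNE1 minus control was -0.07 ± 0.05 (adjusted p = 0.208). With the trend of fold change on GC content and exon length removed, the hairpin values were 0.56 and 1.20.

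RELB (ENSG00000104856, chromosome 19, 45001430 to 45038198, plus strand) encodes the partner of p52. Its level was 14.4, 12.9 and 14.9 CPM in control and 14.9, 13.2 and 15.3 with CCNE1, overlapping ranges. It was 20.9, 19.1 and 21.0 CPM with shTMLHE #1 and 22.1, 23.4 and 21.6 with shTMLHE #2, so all 6 hairpin libraries lay above all 6 others. RELB rose by 0.50 ± 0.11 on the log2 scale with shTMLHE #1 (edgeR adjusted p = 0.000179) and by 0.63 ± 0.11 with shTMLHE #2 (adjusted p = 2.56e-06). These became 0.97 and 1.86 after removal of the GC and length trend. CCNE1 minus control was 0.04 ± 0.12 (adjusted p = 0.834), with a 95% interval of -0.20 to 0.27.

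NFKBIA (ENSG00000100906, chromosome 14, 35401511 to 35404749, minus strand) encodes IkappaB-alpha, which is itself induced by NF-kappaB. It stood at 24.1, 28.7 and 34.4 CPM in control, 22.9, 21.3 and 22.6 with CCNE1, 18.7, 21.1 and 20.6 with shTMLHE #1 and 22.5, 24.6 and 25.0 with shTMLHE #2. Control was above CCNE1 without overlap but spread most, and shTMLHE #1 lay below shTMLHE #2 without overlap. NFKBIA fell by 0.38 ± 0.11 on the log2 scale with CCNE1 (edgeR adjusted p = 0.00378). That call was lost without control replicate 3, the highest library (-0.25, adjusted p = 0.079), and after removal of the GC and length trend (-0.18, adjusted p = 0.196). Against CCNE1, shTMLHE #1 gave -0.15 ± 0.11 (adjusted p = 0.247), which turned to 0.25 under total counts, the scaling without TMM (adjusted p = 0.0421), and shTMLHE #2 gave 0.11 ± 0.11 (adjusted p = 0.349), which became 0.64 under total counts and 0.70 with the trend removed.

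TNFAIP3 (ENSG00000118503, chromosome 6, 137867188 to 137883312, plus strand) encodes A20, an enzyme that edits ubiquitin chains and shuts off the canonical route. Its level was 1.95, 1.35 and 2.07 CPM in control and 2.32, 0.935 and 0.824 with CCNE1. It was 5.81, 6.14 and 6.96 CPM with shTMLHE #1 and 5.34, 6.55 and 6.11 with shTMLHE #2. All 6 hairpin libraries were at least at 5.34 CPM and all others at most at 2.32, and the hairpin groups overlapped each other. TNFAIP3 rose by 2.26 ± 0.29 on the log2 scale with shTMLHE #1 (edgeR adjusted p = 9.87e-09) and by 2.18 ± 0.29 with shTMLHE #2 (adjusted p = 1.10e-08). The difference between the hairpins was 0.07, with a 95% interval of -0.41 to 0.55. CCNE1 minus control was -0.45 ± 0.34 (adjusted p = 0.294) and passed without CCNE1 replicate 1, the high library of that group (-1.01, adjusted p = 0.0182).

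ICAM1 (ENSG00000090339, chromosome 19, 10270835 to 10286615, plus strand) encodes a surface protein that binds leukocyte integrins. It stood at 66.4, 62.0 and 69.1 CPM in control, 31.2, 35.3 and 35.2 with CCNE1, 33.0, 34.0 and 34.4 with shTMLHE #1 and 43.3, 41.7 and 46.0 with shTMLHE #2. Control was far above every other group, the CCNE1 and shTMLHE #1 groups overlapped, and shTMLHE #2 lay between them and control. ICAM1 fell by 0.955 ± 0.07 on the log2 scale with CCNE1 (edgeR adjusted p = 1.56e-13), to 0.516 of its control level. Against CCNE1 it rose by 0.36 ± 0.07 with shTMLHE #2 (adjusted p = 3.69e-05). With shTMLHE #1 the value was -0.01 ± 0.08 (adjusted p = 0.954, 95% interval -0.16 to 0.15), and it became 0.39 under total counts (adjusted p = 2.83e-05) and 0.23 after removal of the GC and length trend (adjusted p = 0.0107). Antisense genes share 23.6% of its exon bases and had at most 1 count in a library.

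CXCL1 (ENSG00000163739, chromosome 4, 73869393 to 73871242, plus strand) encodes a chemokine that draws neutrophils through the receptor CXCR2. It had 7, 4 and 10 counts in control, 2, 3 and 0 with CCNE1, 24, 12 and 10 with shTMLHE #1 and 26, 29 and 21 with shTMLHE #2. In CPM these were 0.488, 0.317 and 0.828, then 0.149, 0.165 and 0, then 1.32, 0.664 and 0.605, and 1.07, 1.37 and 1.18. CCNE1 libraries were below all others, and the control and shTMLHE #1 ranges overlapped. CXCL1 passed the low-count filter through all 6 hairpin libraries and control replicate 3. CXCL1 fell by 2.28 ± 0.82 on the log2 scale with CCNE1 (edgeR adjusted p = 0.022), a call lost without control replicate 3 (-1.88, adjusted p = 0.11) or CCNE1 replicate 3 (-1.73, adjusted p = 0.0932). By summed counts the ratio of CCNE1 to control was 0.196, with an exact 95% interval of 0.0578 to 0.535 that covers counting error only.

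Against CCNE1, CXCL1 rose by 2.95 ± 0.75 on the log2 scale with shTMLHE #1 (edgeR adjusted p = 0.000835) and by 3.42 ± 0.72 with shTMLHE #2 (adjusted p = 6.18e-05). The counting ratios were 8.24 (3.29 to 26.6) and 11.4 (4.66 to 36.0), each over 5 counts in the CCNE1 group. The low-count filter kept CXCL1 for its level in the hairpin groups, so these values describe a gene selected on those groups. CXCL1 shared 4.81% of its transcript 50-mers with the other listed chemokines, and how the authors counted reads that match several of them is not known.

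CXCL2 (ENSG00000081041, chromosome 4, 74097035 to 74099293, minus strand), the close relative of CXCL1, had 7, 12 and 4 counts in control, 5, 11 and 0 with CCNE1, 10, 11 and 14 with shTMLHE #1 and 11, 8 and 10 with shTMLHE #2. The groups overlapped in every comparison with CCNE1, and the CCNE1 group held both a library at 0 and one at 0.605 CPM. None of the 4 comparisons passed. The log2 fold change was -0.81 ± 0.75 with CCNE1 (edgeR adjusted p = 0.401), 0.98 ± 0.71 with shTMLHE #1 (adjusted p = 0.235) and 0.46 ± 0.73 with shTMLHE #2 (adjusted p = 0.577). The last has a 95% interval of -1.01 to 1.93, so a change of the size of RELB could not be seen at this depth. CXCL2 passed the low-count filter in 4 libraries, none of them of the CCNE1 group. It shared 12.5% of its transcript 50-mers with the other listed chemokines.

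CXCL8 (ENSG00000169429, chromosome 4, 73740506 to 73743716, plus strand) encodes interleukin-8, a strong neutrophil attractant. It had 11, 3 and 0 counts in control, 6, 13 and 1 with CCNE1, 0, 5 and 4 with shTMLHE #1 and 27, 13 and 19 with shTMLHE #2. In CPM, shTMLHE #2 stood at 1.11, 0.612 and 1.07 and shTMLHE #1 at 0, 0.277 and 0.242, without overlap, while control and CCNE1 libraries spread over 0 to 0.767. It passed the low-count filter through the 3 shTMLHE #2 libraries and control replicate 1, so it was tested because it was high in shTMLHE #2. Neither hairpin passed against CCNE1, at -1.25 ± 0.91 for shTMLHE #1 (edgeR adjusted p = 0.238) and 1.15 ± 0.73 for shTMLHE #2 (adjusted p = 0.154), the latter 1.67 under total counts (adjusted p = 0.0358) and -0.09 after removal of the GC and length trend. CCNE1 minus control was 0.24 ± 0.85 (adjusted p = 0.842).

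IL6 (ENSG00000136244, chromosome 7, 22725884 to 22732002, plus strand) encodes interleukin-6, which signals through IL6R and IL6ST. It had 12, 18 and 4 counts in control, 7, 17 and 15 with CCNE1, 32, 23 and 16 with shTMLHE #1 and 47, 66 and 31 with shTMLHE #2. In CPM, the CCNE1 group stood at 0.523, 0.935 and 0.951, shTMLHE #1 at 1.75, 1.27 and 0.968 and shTMLHE #2 at 1.93, 3.11 and 1.74. Both hairpin groups were above the CCNE1 group, shTMLHE #1 by a narrow margin, and control overlapped CCNE1. IL6 rose by 1.47 ± 0.44 on the log2 scale with shTMLHE #2 (edgeR adjusted p = 0.00334, counting ratio 2.76, 95% interval 1.93 to 4.04). With shTMLHE #1 the value was 0.71 ± 0.46 (adjusted p = 0.187), and 1.10 under total counts (adjusted p = 0.0347). STEAP1B and AC073072.1 on the other strand share 20.7% of IL6's exon bases. STEAP1B had 162 to 239 counts in each library against at most 66 for IL6, and the strand setting of the counting is not given in the sources used here, so part of the IL6 counts could belong to it. Its part in the result was not tested.

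CCL2 (ENSG00000108691, chromosome 17, 34255218 to 34257203, plus strand) encodes the monocyte attractant MCP-1. It had 6 counts in control replicate 2 and 0 in the other 11 libraries, and was not tested. A count of 0 allows up to 0.248 CPM in the shallowest library by the floor of 3 counts. Its relative CCL7 was at 0 in all 12 libraries.

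CXCL1, CXCL2 and CXCL8 lie in 1 cluster on chromosome 4 with other neutrophil chemokines, and the cluster was examined gene by gene. CXCL5, which shares the receptor CXCR2, had 26 counts summed over control, 25 with CCNE1, 112 with shTMLHE #1 and 120 with shTMLHE #2. It rose by 2.02 with shTMLHE #1 (edgeR adjusted p = 0.00021) and by 1.89 with shTMLHE #2 (adjusted p = 0.000343) on the log2 scale, while CCNE1 minus control was -0.37 and did not pass. CXCL1 summed to 21, 5, 46 and 76 counts in the same order of groups. CXCL3 summed to 7, 16, 21 and 14 counts and was not tested, and CXCL6, PF4V1 and PPBP were at 0 in all libraries. CXCL8, at one end of the cluster, summed to 14, 20, 9 and 59 counts and CXCL2, at the other, to 23, 16, 35 and 29. Within the cluster, then, CXCL1 and CXCL5 were higher with both hairpins, and CXCL2 and CXCL8 passed with neither. The low-count filter kept CXCL1 and CXCL5 for their level in the hairpin groups. Differences between these genes were not tested, and the 95% interval of CXCL2 with shTMLHE #1, -0.46 to 2.42, includes the CXCL5 value of 2.02.

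The hairpin groups were also set against each other. CCNE1 itself was higher with shTMLHE #1 than with shTMLHE #2, by 0.58 on the log2 scale (edgeR adjusted p = 3.13e-18), and its part in the differences below was not tested. Of the 9 genes, 3 were lower with shTMLHE #1 than with shTMLHE #2 and none was higher, against 60.3% of all tested genes called, 29% lower and 31.3% higher. Libraries did not overlap for CXCL8, ICAM1, NFKBIA and RELB, 4 of 9 genes against 69.7% of all, and CXCL8 alone differed at least 2-fold, as did 15.7%. The median log2 fold change was -0.26 over the 9 genes and -0.01 over all. CXCL8 differed by -2.39 ± 0.81 (edgeR adjusted p = 0.011), with a counting ratio of 0.183 (0.0797 to 0.371). The low-count filter kept it for its level in shTMLHE #2, so this value is a description of a gene selected on that group; with no filter it was -2.41 (adjusted p = 0.00904). Its call was lost after removal of the GC and length trend (-1.77, adjusted p = 0.0728) and without shTMLHE #1 replicate 1, the library at 0 (-1.81, adjusted p = 0.0817). ICAM1 differed by -0.37 ± 0.07 (adjusted p = 3.48e-05).

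NFKBIA differed between the hairpins by -0.26 ± 0.11 (edgeR adjusted p = 0.034). That call was lost without shTMLHE #1 replicate 1 (-0.21, adjusted p = 0.145), shTMLHE #2 replicate 2 (-0.24, adjusted p = 0.0931) or shTMLHE #2 replicate 3 (-0.23, adjusted p = 0.103), and by limma on log2(FPKM + 1) (-0.24, adjusted p = 0.0508). IL6 differed by -0.76 ± 0.41 and did not pass (adjusted p = 0.112), though it did when these 2 groups were fitted alone (-0.76, adjusted p = 0.0266). RELB differed by -0.14, with a 95% interval of -0.35 to 0.08, and NFKB2 by -0.05, with an interval of -0.14 to 0.04. Both passed under total counts (-0.27 and -0.19) and after removal of the GC and length trend (-0.89 and -0.64). CXCL1 differed by -0.47, with an interval of -1.53 to 0.58.

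Scaling bears on the hairpin comparisons. Under total counts the median log2 fold change of all tested genes moved from 0.03 to 0.43 with shTMLHE #1 and to 0.56 with shTMLHE #2, and the calls split into 7844 higher and 2490 lower, and 8315 higher and 3443 lower. NFKB2, at 0.62 and 0.81 under total counts, still lay above those medians. Of the 9 genes, 7 and 8 were then called, all higher. Between the hairpins the median moved from -0.01 to -0.15 and 4001 genes were higher and 5463 lower. CXCL1, TNFAIP3, RELB and NFKB2 were higher with both hairpins at an adjusted p under 0.05 in every alternative that tested them, each library left out in turn included. For CXCL1 this describes a gene that the low-count filter kept for its level in the hairpin groups.

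**Figure D4:**
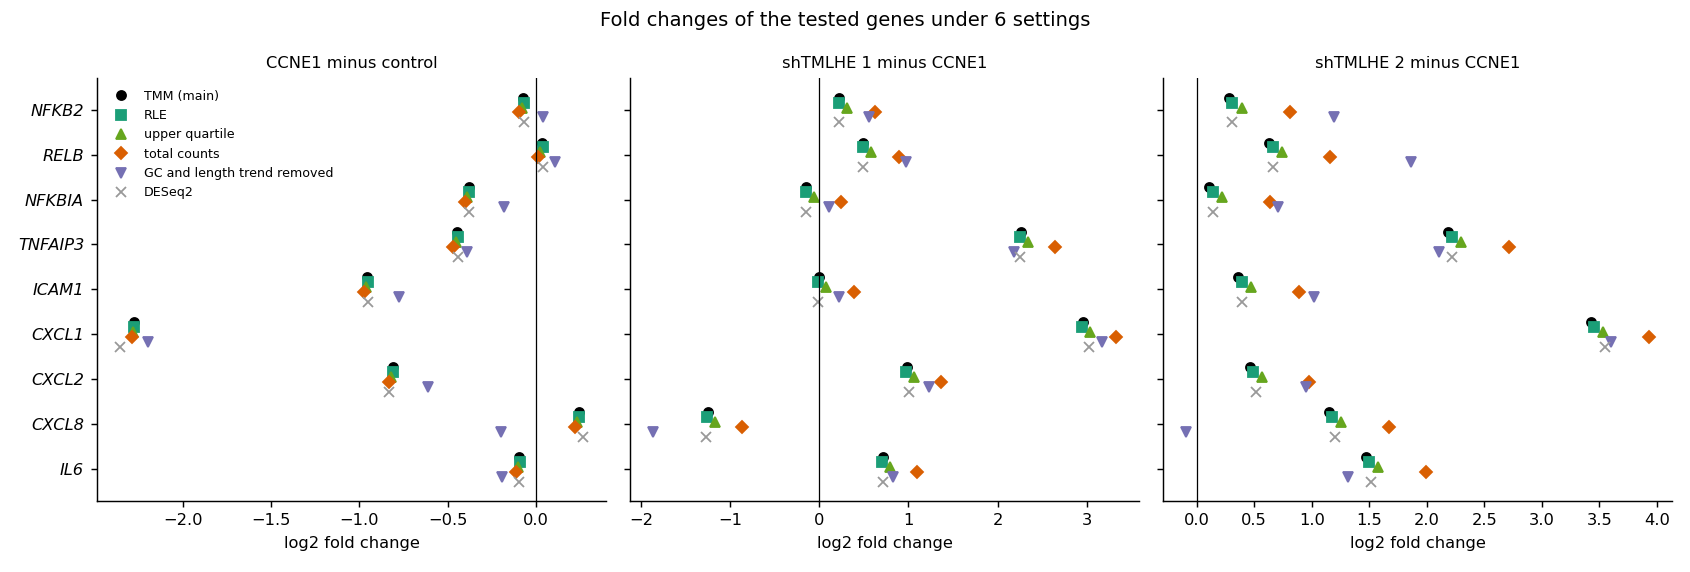
Log2 fold changes of the 9 tested genes under 6 settings in 3 comparisons, with a separate horizontal axis for each panel. Total counts shift both hairpin comparisons to the right for every gene, and the GC and length trend moves NFKB2 and RELB to the right and CXCL8 to the left with shTMLHE #2.

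Across the 12 libraries, on log2 CPM with a prior count of 2, the subunits and A20 moved in parallel. Pearson's r was 0.896 between RELB and NFKB2, 0.910 between TNFAIP3 and RELB, and 0.922 between TNFAIP3 and NFKB2. CXCL1 had r of 0.829 with TNFAIP3 and 0.831 with NFKB2. ICAM1 and NFKBIA formed another pair with r of 0.821, and NFKBIA had r of -0.379 with RELB. CXCL8 had r between -0.121 and 0.376 with the other tested members. These are descriptions over 4 groups that share their scaling and depth, and most of the variation lies between groups.

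Genes with the most similar pattern were searched for 3 members among tested genes whose mean log2 CPM was 1 or more. For NFKB2 they were IPPK (r = 0.972), TADA2A (0.965) and NFATC2IP (0.961). For NFKBIA they were FBLIM1 (0.937), ALKBH1 (0.913) and PAN2 (0.884). For CXCL8 they were DNAJC22 (0.931), ARL6IP5 (0.849) and SH3BGRL (0.841). None of these 9 genes is on the pathway lists, and the searches ran over 11683 genes for NFKB2 and NFKBIA and 11684 for CXCL8. Each r is among the 3 highest of its search. CXCL8 had 0 to 27 counts per library, several at or under the floor of 3, so its r values rest on few counts.

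The rest of the pathway was described from lists of 103 genes, of which 73 were tested. With CCNE1, 13 were higher and 19 lower, beside 25.1% and 19.1% of all tested genes. With shTMLHE #1, 30 were higher and 20 lower, beside 30.4% and 30.3%, and with shTMLHE #2, 37 were higher and 26 lower, beside 36.8% and 36.2%. The counts of each list below are to be read against these shares, and none is shown to be particular to its list. Median log2 fold changes were 0.03, 0.18 and 0.33, beside 0.05, 0.03 and 0.03 over all tested genes.

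Of the other subunits, NFKB1, the precursor of p50, rose by 0.58 and 0.86 on the log2 scale with shTMLHE #1 and shTMLHE #2 and fell by 0.38 with CCNE1. RELA, the main activating subunit, fell by 0.24 and 0.84 with the hairpins, of which the former became 0.15 under total counts, and fell by 0.16 with CCNE1. REL rose by 1.92 with shTMLHE #2 (edgeR adjusted p = 0.000135) and stood at 0.39 with shTMLHE #1, which did not pass. Among all 5 subunits, 4 were higher and RELA lower with shTMLHE #2, beside 73% of all tested genes called, 36.8% higher and 36.2% lower.

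Of 11 other genes listed as inhibitors, 5 rose and 3 fell with shTMLHE #1, beside 60.7% of all tested genes called. With shTMLHE #2, 5 rose and 4 fell, beside 73% called. The list holds BCL3 and NFKBIZ, which do not only inhibit, so its counts do not measure inhibition. The deubiquitinases CYLD and OTULIN rose, CYLD by 1.39 and 1.32 and OTULIN by 0.56 and 1.07. BCL3, a nuclear partner of p52, fell by 1.01 and 0.97, the latter becoming 0.28 after removal of the GC and length trend. TNIP1, a binding partner of A20, rose by 0.18 and fell by 0.34, which turned to 0.19 under total counts. With CCNE1, 2 of these 11 genes rose and 2 fell.

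Of 20 kinases and adaptors, 10 rose and 4 fell with shTMLHE #1, 12 rose and 6 fell with shTMLHE #2, and 6 rose and 2 fell with CCNE1, beside 60.7%, 73% and 44.2% called over all tested genes. The ubiquitin ligase BIRC2 rose by 0.93 with CCNE1 and by 1.20 and 2.14 with the hairpins. The kinase IRAK1, downstream of the IL-1 receptor, fell by 0.55 and 1.37. Subunits of the TAK1 complex split, with TAB2 up by 0.46 and 1.45 and TAB1 down by 0.15 and 1.65, of which the first TAB1 value became 0.24 under total counts.

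Of 7 tested receptors, 3 rose and 2 fell with shTMLHE #1 and 2 rose and 4 fell with shTMLHE #2, and with CCNE1 1 rose and 3 fell, where the shares called over all genes were again 60.7%, 73% and 44.2%. The lymphotoxin receptor LTBR fell by 0.35 with CCNE1 and by 0.70 and 0.82 with the hairpins, and TNFRSF12A, the TWEAK receptor, fell by 0.23, 0.53 and 0.79. Both TNFRSF12A hairpin values turned after removal of the GC and length trend, to 0.05 and 0.47. TNFRSF1A, the main TNF receptor, fell by 0.66 with shTMLHE #2 and CD40 by 0.96, and with shTMLHE #1 both stood at -0.04 and turned to 0.36 and 0.35 under total counts.

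Of 5 tested ligands, 3 fell with shTMLHE #1, and 3 fell and 1 rose with shTMLHE #2, while 2 fell with CCNE1, against the same shares of all genes. The cytokine IL1B fell by 0.92 and 2.71, IL18 by 0.84 and 0.31, and TNFSF12, which encodes TWEAK, by 0.57 and 1.09. The IL18 value with shTMLHE #2 became 0.22 under total counts, and that of TNFSF12 0.06 after removal of the GC and length trend. TNF had 2 to 11 counts in control, 0 to 5 with CCNE1, 3 to 9 with shTMLHE #1 and 16 to 18 with shTMLHE #2. It rose by 1.91 with shTMLHE #2 (edgeR adjusted p = 0.0224). The low-count filter kept it for its level in shTMLHE #2, so this value describes a gene selected on that group.

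Of 4 tested chemokines outside the 10 genes, CXCL5 rose with both hairpins as given above and CXCL16 fell by 1.05 and 1.54. CCL28 fell by 0.70 with shTMLHE #2. CXCL14 fell by 1.98 with shTMLHE #2 (edgeR adjusted p = 0.032), but on few counts, 4 to 19 with CCNE1 and 0 to 6 with shTMLHE #2. Its libraries overlapped between these groups. The low-count filter kept CXCL14 for its level in CCNE1 and shTMLHE #1 libraries. The fall thus describes a gene selected partly on the CCNE1 group. Of 3 tested receptors for chemokines or IL-6, IL6ST, the signalling chain of the IL-6 receptor, rose by 1.98 and 3.36 and IL6R by 1.35 and 1.56, and the chemokine receptor ACKR3 did not pass.

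Of 20 other NF-kappaB targets, 8 rose and 6 fell with shTMLHE #1, 12 rose and 5 fell with shTMLHE #2, and 3 rose and 8 fell with CCNE1, beside 60.7%, 73% and 44.2% of all tested genes called. The urokinase gene PLAU rose in all 3, by 0.49 with CCNE1 and by 1.34 and 1.53 with the hairpins. LAMB3, a laminin chain, rose by 2.25 and 0.60. The tissue factor gene F3 rose by 0.94 with shTMLHE #2, and stood at -0.06 with shTMLHE #1, which turned to 0.33 under total counts.

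**Figure D5:**
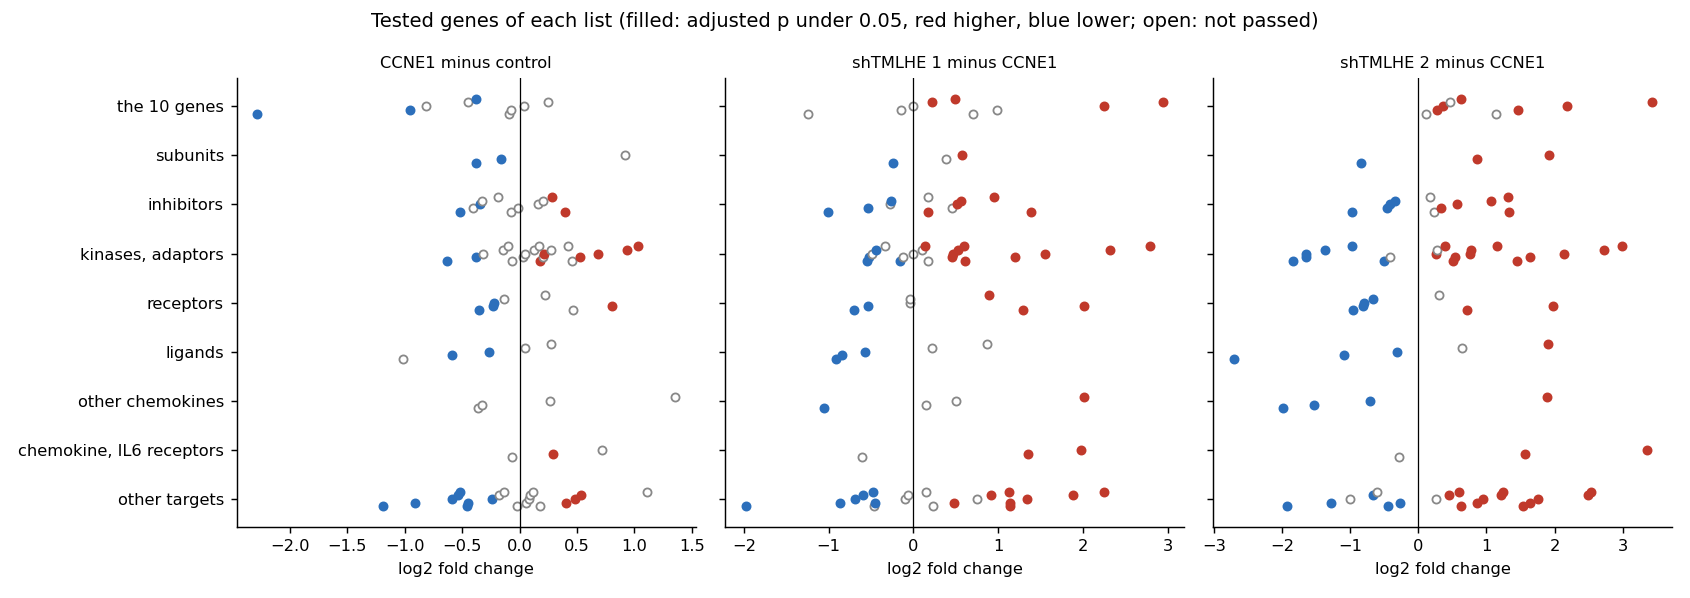
Log2 fold changes of the tested genes of the 10 and of 8 pathway lists, 1 point per gene, in 3 comparisons with separate horizontal axes. Filled red and blue points passed an adjusted p under 0.05, and genes of most lists lie on both sides of 0 with both hairpins.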

How the data were processed

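RNA was sequenced from 12 libraries of Ovcar8 cells in 4 labelled groups of 3. Per the labels' protocols, Trizol extracts were cleaned on a column and treated with DNase before library preparation with an NEBNext kit. The authors deposited raw counts per gene and FPKM, and STAR 2.6.1 and DESeq2 with GRCh38 are named per the submitters' processing notes. For 100% of genes the deposited length was the exon length in GENCODE 29. How reads were assigned to genes, with strand or without and for repeated matches, is not given in the sources used here. Deposited FPKM served in alternatives only.

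Counts were filtered with filterByExpr by group, scaled by TMM and fitted with edgeR 4.0.16's robust quasi-likelihood model over all 12 libraries, with 8 residual degrees of freedom and Benjamini-Hochberg adjustment over 15378 genes. The method was tested on simulated counts. Alternatives were RLE, upper quartile and total-count scaling, removal of a GC and length trend, DESeq2 1.42.0, other filters, limma 3.58.1 on log2(FPKM + 0.1) and log2(FPKM + 1), compared groups only, a replicate block, stricter thresholds and each library left out. The 10 genes and the lists were chosen with earlier results of these data known. Named were all 10, CCNE1, TMLHE, CXCL3, CXCL5, CXCL6, CCL7, up to 4 genes per list by smallest p (all of lists of at most 3), and the 3 genes most like CXCL8, NFKBIA and NFKB2. One gene the rule took is not reported here. Any other gene was named after its values were seen. Motifs were searched with Python 3.11.15.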

Additional observations from a re-analysis of the deposited data

Results flagged for a closer look

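Of the 9 tested genes, 3 differed between the hairpin groups by a direct test of shTMLHE #1 against shTMLHE #2, beside 60.3% of all tested genes, so this count is no result about the 9. CXCL8 differed by -2.39 on the log2 scale (edgeR adjusted p = 0.011), ICAM1 by -0.37 (adjusted p = 3.48e-05) and NFKBIA by -0.26 (adjusted p = 0.034). CXCL8 was tested because it was high in shTMLHE #2, and its call was lost after removal of the GC and length trend (-1.77, adjusted p = 0.0728) and without shTMLHE #1 replicate 1 (-1.81, adjusted p = 0.0817). The NFKBIA call was lost without any 1 of 3 libraries, shTMLHE #1 replicate 1 and shTMLHE #2 replicates 2 and 3 (-0.21 to -0.24). Each was lower with shTMLHE #1, in 3 of 3 libraries against 3 of 3. The residual TMLHE level was 0.956 CPM with shTMLHE #1 and 0.482 with shTMLHE #2, and its part in these differences was not tested.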

How the results depend on the processing

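Of the 36 values of the 9 genes, all kept their call and, where called, their direction under RLE and upper quartile scaling, DESeq2, no filter on low counts, log2(FPKM + 0.1) and the replicate block; the calls of the 9 genes that changed under other settings stand beside each gene above. With a threshold of at least 2-fold, 941, 2969, 5852 and 2409 genes passed for CCNE1, shTMLHE #1, shTMLHE #2 and the difference of the hairpins, with 1, 2, 3 and 1 of the 9 genes and 2, 19, 32 and 14 of the pathway genes. Under total counts 7 of the 9 genes passed for shTMLHE #1 and 5 for the difference of the hairpins. With TMM scaling, an adjusted p under 0.01 left 1 of the 9 genes for the difference of the hairpins. With 1 library left out, the 9 genes gave 1 to 4 calls for CCNE1 (1 without control replicate 3) and 1 to 3 for the difference of the hairpins (1 without shTMLHE #1 replicate 1).

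Under total counts these log2 fold changes turned to positive: with shTMLHE #1, ICAM1 (0.39), NFKBIA (0.25), RELA (0.15), TAB1 (0.24), TNFRSF1A (0.36), CD40 (0.35) and F3 (0.33), and with shTMLHE #2, CCNE1 (0.29), TNIP1 (0.19) and IL18 (0.22). After removal of the GC and length trend, values turned for CCNE1 in CYLD (-0.10), TAB2 (-0.19) and IL6ST (-0.18), for shTMLHE #1 in ICAM1 (0.23), TAB1 (0.14), TNFRSF12A (0.051) and TNFRSF1A (0.10), for shTMLHE #2 in TNIP1 (0.22), BCL3 (0.28), TNFRSF12A (0.47) and TNFSF12 (0.061), and for the difference of the hairpins in TNFRSF12A (-0.42), LTBR (-0.34) and TNFSF12 (-0.078). With the replicate block added to that trend these were -0.10 for CYLD and -0.18 for IL6ST, 0.23 for ICAM1, 0.14 for TAB1, 0.052 for TNFRSF12A and 0.10 for TNFRSF1A, 0.22 for TNIP1, 0.28 for BCL3, 0.48 for TNFRSF12A and 0.054 for TNFSF12, and -0.42, -0.34 and -0.0726 for the last 3. Calls of other named genes were lost without a change of sign in 15 of 128 values after removal of the trend and in 5 under total counts. The cause was not tested.

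Same-numbered libraries of different groups correlated at -0.046 to 0.026 in their deviations from group means, over 18 pairs. Of 12 libraries, 2 correlated best with their own number, so no pairing by number was seen. Whether same-numbered libraries were handled together is not known from this. With the replicate block, 3, 4, 6 and 3 of the 9 genes passed, as without it, and 6624, 9231, 11123 and 9125 of all genes. Depth limits CXCL1, CXCL2, CXCL8, IL6 and CCL2, for which 3 counts are 0.123 to 0.248 CPM.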

Other observations

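The 3 NF-kappaB targets BIRC3, LIF and TRAF1 were singled out after their values were seen. All 3 rose with shTMLHE #2, as did 36.8% of all tested genes, so their shared direction is no result about the list of other targets. BIRC3, an inhibitor of cell death induced by the pathway, had 0 to 6 counts in control, 0 to 21 with CCNE1, 10 to 24 with shTMLHE #1 and 56 to 88 with shTMLHE #2, and the last group stood above the other 9 libraries. It rose by 2.49 on the log2 scale with shTMLHE #2 (edgeR adjusted p = 0.000201) and was at 0.75 with shTMLHE #1, which did not pass. The low-count filter kept BIRC3 for its level in the hairpin groups, so these values describe a gene selected on those groups. LIF, a cytokine of the IL-6 family, fell by 1.19 with CCNE1 and rose by 1.89 and 2.54 with the hairpins. TRAF1, an adaptor, stood at -0.18 with CCNE1 and rose by 1.15 and 1.21. Of the same list, NINJ1, an adhesion molecule induced by nerve injury, fell by 1.98 and 1.93 with shTMLHE #1 and shTMLHE #2, and IER3, IL32 and GADD45B fell as well, by 0.86 and 1.28, 0.45 and 0.44, and 0.47 and 0.27. These values are from TMM scaling alone. In CPM of plain totals, mean IL32 was 119.5 with CCNE1, 115 with shTMLHE #1 and 126.7 with shTMLHE #2. Mean GADD45B was 74.9, 71.0 and 89.9 in the same order. By that measure both were above the CCNE1 group with shTMLHE #2, while NINJ1 and IER3 stayed lower with both hairpins.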
